A study of Homo sapiens with 18 samples.

Results

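COLO357 and SUIT2, established human pancreatic ductal adenocarcinoma cell lines, were compared with each other in matched siRNA treatments, to describe how the lines differ irrespective of the siRNA they received. The comparison used 12 of the 18 RNA sequencing libraries in a study of the histone methyltransferases KMT2C and KMT2D. These were all 6 COLO357 libraries and all 6 SUIT2 libraries, chosen by the cell line named in the library's title, and the 6 libraries of the PANC1 line enter only where they are named. COLO357 and SUIT2 each gave 1 library with Control siRNA, 1 with KMT2D siRNA1, 1 with KMT2D siRNA2 and 1 each with KMT2C siRNA1, siRNA2 and siRNA3, all of them 48 h after transfection. Every library of both lines therefore came from transfected cells, 10 of the 12 carried an siRNA against KMT2C or KMT2D, and libraries of the 2 lines were paired by the name of the siRNA. Each group is 1 cell line, so that its values describe that culture, and the labels do not say that libraries came from separate cultures. What the p-values weigh a difference against is thus the variation among these libraries, part of which may be technical.

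The lines differed in the epithelial genes they expressed. COLO357 carried genes of squamous and basal epithelium (TP63, KRT5, KRT6A, KRT17, TRIM29, DSG3 and S100A2), the collagen IV chains, neutrophil-attracting chemokines and enzymes of detoxification, which SUIT2 carried at lower levels or hardly at all. SUIT2 carried endodermal transcription factors (HNF4A, NR5A2 and ONECUT2), some products of gut-type epithelium (CLDN2, CEACAM6, ANKS4B and LGALS4), nidogen 1 and more integrin mRNA, while other gastrointestinal products (CEACAM5, ANXA10, MUC5AC and S100P) were higher in COLO357. Neither set was uniform. Other basal-like genes (UCA1, VGLL1, CST6 and AREG) were higher in SUIT2, and the endodermal factors FOXA1 and SOX17 were higher in COLO357. KRT8, KRT18 and KRT19, keratins of simple epithelium, and E-cadherin did not pass the test between the lines. Transcripts of SMAD4 and KDM6A were almost absent from SUIT2, and those of STK11 were low in COLO357.

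As background, ductal carcinomas of the pancreas fall along an axis between a classical programme, in which endodermal transcription factors of the GATA, HNF and FOXA families keep a gastrointestinal epithelial identity, and a basal-like or squamous programme, which centres on the p63 protein and the keratins of stratified epithelium. The basement membrane under such cells is a network of laminins and collagen IV that nidogens and perlecan connect, and cells hold on to it through integrins. COLO357 was established from a lymph node metastasis and SUIT2 from a liver metastasis.

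Depth was 15822531 to 23950329 gene counts in COLO357 and 14205640 to 25632462 in SUIT2, and read pairs in no annotated gene made up 10.2% to 30.4% and 10.5% to 25%. All values of a gene are given as CPM, in the order lowest, median and highest of the 6 libraries of a line. CPM is a gene's count relative to the library's total over the tested genes, scaled by edgeR's TMM factors (0.962 to 1.04). For PANC1 and for distances between libraries, totals over all genes and factors fitted to all 18 libraries were used instead. CPM are not divided by transcript length, so they compare libraries and not genes. KMT2C, a methyltransferase of histone H3 at enhancers, had 90.9, 83.5, 91.4, 45, 56.8 and 77.6 CPM in COLO357 with Control siRNA, KMT2D siRNA1, KMT2D siRNA2 and KMT2C siRNA1, siRNA2 and siRNA3, against 144, 136, 218, 62.6, 96 and 92.3 CPM in SUIT2 in the same order. KMT2D, its close relative, had 32.9, 14.2, 14.6, 41.6, 42.1 and 70.9 CPM in COLO357 in that order, against 67.7, 23.5, 45, 67.4, 108 and 100 CPM in SUIT2. Each targeted library held less of its own target than the Control siRNA library of its line, and both genes were lower in COLO357 than in SUIT2, with log2 fold changes of −0.69 (SE 0.126, adjusted p = 0.000187) and −0.99 (SE 0.146, adjusted p = 2.3e-05). Epithelial markers were high in every library (EPCAM, 178 to 310 CPM in COLO357 and 434 to 863 CPM in SUIT2), whereas PTPRC of leukocytes, PECAM1 of endothelium and DCN of fibroblasts did not exceed 0.087 CPM in any. Some genes otherwise known from other cell types did differ. The summed level of 12 fibroblast markers was 70.3 to 202 CPM in COLO357 and 3.15 to 6.93 CPM in SUIT2, that of 12 leukocyte markers was 357 to 536 CPM in COLO357 and 4.69 to 11.7 CPM in SUIT2, and that of 10 endothelial markers was 5.17 to 29.7 CPM in COLO357 and 6.09 to 17.5 CPM in SUIT2. Most of the first 2 sums in COLO357 came from COL1A1, MFAP5 and LCP1. Most of the third came from CDH5 in COLO357 and from ESAM in SUIT2. CDH5, the cadherin of endothelium, had 4.65, 9.82 and 29 CPM in COLO357, against 0, 0 and 0.0457 CPM in SUIT2. ESAM, an adhesion molecule of endothelium and platelets, had 0.127, 0.223 and 0.291 CPM in COLO357, against 5.94, 8.73 and 17.1 CPM in SUIT2. VWF did not exceed 0.391 CPM in COLO357 and 0.196 CPM in SUIT2. The fibroblast genes FAP and LUM stayed under 1 CPM in COLO357, at most 0.739 and 0.913 CPM, against at most 0.0679 and 0 CPM in SUIT2. The part of other cells in these levels was not tested. In such bulk libraries, fewer cells of a type and less RNA per cell cannot be told apart.

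Of 16375 genes that passed the filter on low counts, 10821 (66.1%) were called as differing between the lines. A call required an adjusted p under 0.05 in edgeR's quasi-likelihood F test over the 6 siRNA pairs, with Benjamini-Hochberg adjustment over all genes, and the same direction between the 2 Control siRNA libraries. COLO357 was higher for 5572 genes (34%) and SUIT2 for 5249 (32.1%). A log2 fold change is that of COLO357 over SUIT2 throughout, its median over all genes tested was 0.02, and its median size was 0.66. Differences past 2-fold, tested as such, were found for 3972 genes (24.3%), of which 2122 (13%) were higher in COLO357 and 1850 (11.3%) in SUIT2, and 3963 of these had the same direction in 6 of 6 pairs. At least 16-fold differences were fitted for 739 called genes higher in COLO357 and 406 higher in SUIT2. The 6 COLO357 libraries and the 6 SUIT2 libraries did not overlap for 6363 genes (38.9%). Before the condition on the Control pair, 11120 genes (67.9%) passed, and 299 of them had the opposite direction between the Control siRNA libraries. A gene that is expressed in 1 line alone passes the filter through that line and so had to differ, so that the counts over gene lists given below describe those lists and are no support for them. Every such count is to be read beside the shares of all genes tested, 34% higher in COLO357 and 32.1% higher in SUIT2.

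Libraries of different lines lay further apart than libraries of the same line. With 1 library per siRNA in each line, distances within a line hold siRNA effects and other variation among libraries, which were not separated. On log2(CPM + 0.5), the root mean square difference between a COLO357 and a SUIT2 library was 1.46 to 1.59 over 36 pairs, against medians of 0.45 among COLO357 libraries and 0.56 among SUIT2 libraries (15 pairs each). The first principal component, which separated the lines, held 82.7% of the variance, and 2273 genes (13.9%) had over 90% of their own spread between the lines. When the calls were made in the 10 knockdown libraries alone, 10210 of 10697 called genes (95.4%) had the same direction in the Control pair that had been left out. Of the 3952 past 2-fold in those libraries, 3933 (99.5%) did.

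**Figure D1:**
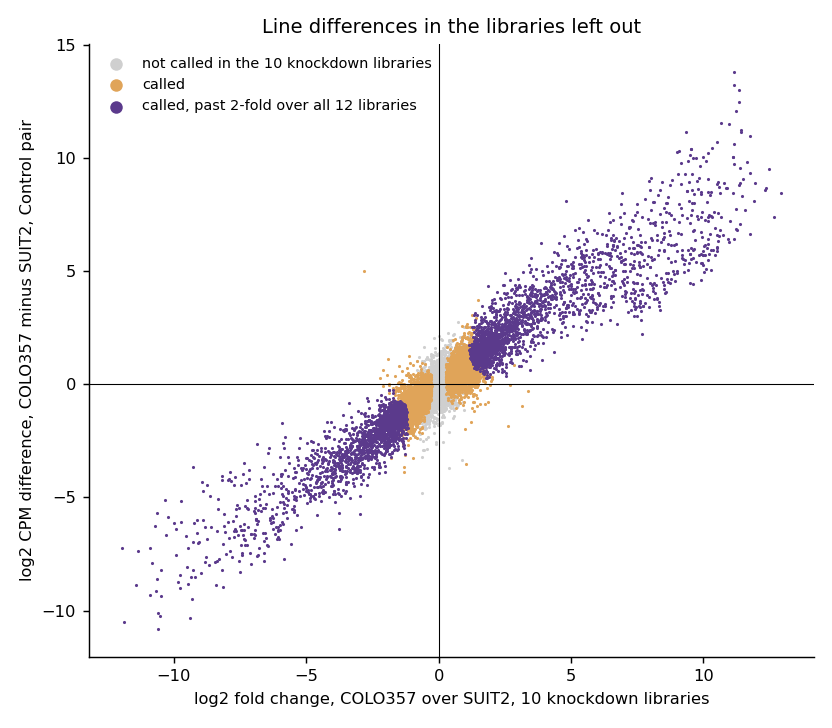
The log2 fold change of COLO357 over SUIT2 in the 10 knockdown libraries (horizontal axis) is plotted against the log2 CPM difference, COLO357 minus SUIT2, in the Control siRNA pair that was left out (vertical axis), with 1 point per gene tested. Of the called genes (orange and purple), 95.4% lie in the quadrants where both values have the same sign. Purple marks called genes that were past 2-fold over all 12 libraries, a class that itself required the same direction in the Control pair.

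The 15 protein-coding genes with the largest differences in COLO357's favour included the keratins KRT5, KRT6A and KRT81 and TRIM29, which are described with the squamous genes, and several genes otherwise known from neural, vascular or immune cells. LCP1 (ENSG00000136167), an actin-bundling protein best known from leukocytes, had 354, 391 and 534 CPM in COLO357, against 0, 0.146 and 0.272 CPM in SUIT2, a log2 fold change of 11.57 (SE 0.237, adjusted p = 3.62e-14). Every COLO357 library lay above 350 CPM, while the defining leukocyte genes PTPRC and CD3D stayed at or under 0.087 and 0 CPM in both lines. CDH19 (ENSG00000071991), a cadherin known from Schwann cell precursors, had 29, 41.2 and 66 CPM in COLO357, against 0, 0 and 0.0652 CPM in SUIT2, and its ratio of counts was 5014-fold (95% counting interval 900 to 198072). NRCAM, a neuronal adhesion molecule, CALCA, which encodes calcitonin and a related neuropeptide, and OLR1, the receptor for oxidised lipoprotein, had no count in SUIT2. They were at least 1146-fold, at least 1321-fold and at least 1581-fold higher in COLO357. RPRM, a cell cycle inhibitor gene known as reprimo, had 11.1, 21.6 and 26.6 CPM in COLO357 and no count in SUIT2. The matrix-associated gene SMOC1 had 20.6, 53.6 and 68.3 CPM in COLO357, against 0, 0 and 0.0448 CPM in SUIT2. The WNT receptor gene FZD10 had 75.6, 87.7 and 133 CPM in COLO357, against 0, 0 and 0.0757 CPM in SUIT2. None of the genes from LCP1 to FZD10 was detected above 0.3 CPM in any SUIT2 library.

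The 15 protein-coding genes with the largest differences in SUIT2's favour included several that are otherwise known from absorbing or transporting epithelium, along with enzymes, proteases and matrix genes. HAVCR1 (ENSG00000113249), the kidney injury molecule receptor, had 0, 0.156 and 0.336 CPM in COLO357, against 390, 555 and 662 CPM in SUIT2, a log2 fold change of −11.63 (SE 0.285, adjusted p = 4.63e-13). No COLO357 library reached 0.4 CPM. CLDN2 (ENSG00000165376), a claudin that forms cation pores in leaky epithelium, had 0.087, 0.225 and 0.51 CPM in COLO357, against 62.3, 454 and 643 CPM in SUIT2 (log2 fold change −10.54, SE 0.223, adjusted p = 3.62e-14). ANKS4B (ENSG00000175311), a scaffold of brush border microvilli, had no count in any COLO357 library and 4.34, 12.7 and 23.5 CPM in SUIT2, which made it at least 561-fold higher in SUIT2 over a floor of 3 counts in the 6 COLO357 libraries together. RPE65, the retinoid isomerase known from retinal pigment epithelium, and HS3ST5, a heparan sulfate sulfotransferase, likewise had no count in COLO357 and were at least 708-fold and at least 441-fold higher in SUIT2. The vanins VNN1 and VNN2, pantetheinases encoded side by side on chromosome 6, had medians of 0.0508 against 81 CPM and of 0 against 46.6 CPM, with COLO357 before SUIT2. TRHDE, a peptidase that degrades thyrotropin-releasing hormone, had 0, 0.0642 and 0.13 CPM in COLO357, against 77, 102 and 118 CPM in SUIT2. The tetraspan protein gene TM4SF18 (0.191 against 454 CPM), the urea transporter gene SLC14A1 (0.0217 against 39.8 CPM), the chromatin protein gene TOX3 (0 against 14.8 CPM), CCDC198 (0.0508 against 51.3 CPM) and LONRF2 (0.106 against 109 CPM) completed this group, each given by its median in COLO357 against that in SUIT2. The other 2 of these 15, the matrix genes NID1 and MMP1, are described with the matrix.

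By levels alone, 105 genes were on in 1 line and silent in the other, taken as at least 5 CPM in all 6 libraries of 1 line and under 0.1 CPM in all 6 of the other. Of these, 88 were silent in SUIT2 (25 of them without a single count) and 17 in COLO357 (3 without a count). Those on in COLO357 with the highest levels were the RNA-binding protein gene CELF4, the cyclooxygenase gene PTGS2, TSPYL5, the histone demethylase gene KDM6A, the inflammasome-family gene NLRP2, SMOC1, FZD10 and ADAMTS1. PTGS2, the inducible enzyme of prostaglandin synthesis, had 29.8, 79.4 and 141 CPM in COLO357, against 0, 0.0228 and 0.0895 CPM in SUIT2. CELF4 had 45.2, 74.3 and 98.7 CPM in COLO357, against 0, 0.0418 and 0.0895 CPM in SUIT2. Those on in SUIT2 with the highest levels were TRHDE-AS1, VNN2, VNN1, SLC14A1, NCMAP, the endogenous-retrovirus-derived gene NYNRIN, the cation channel gene TRPV2 and B3GALT5-AS1. TRPV2 had 0, 0.024 and 0.0869 CPM in COLO357, against 19.7, 22 and 37.1 CPM in SUIT2, and NYNRIN had 0.0481, 0.0743 and 0.087 CPM in COLO357, against 39.4, 54.4 and 72.4 CPM in SUIT2. Of the 88 genes silent in SUIT2, 38 were also under 0.1 CPM in all 6 PANC1 libraries and 13 were on there. Of the 17 silent in COLO357, 7 were silent and 1 was on in PANC1.

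Squamous and basal epithelial genes were mostly higher in COLO357. Of 35 genes matched from a list of the basal-like and squamous programme, 25 passed the filter, 18 were called higher in COLO357 (34% of all genes tested were) and 6 higher in SUIT2 (32.1% were). Their median log2 fold change was 2.42, against 0.02 over all genes, and the medians of the 6 siRNA pairs ran between 1.83 and 4.23, with 1.83 in the Control pair. Past 2-fold were 16 genes higher in COLO357 and 4 higher in SUIT2, against 13% and 11.3% of all genes. TP63 (ENSG00000073282), the transcription factor of stratified epithelium on chromosome 3, had 41.7, 63.6 and 106 CPM in COLO357, against 0, 0.0882 and 0.313 CPM in SUIT2, a log2 fold change of 9.31 (SE 0.287, adjusted p = 1.02e-12). All 6 COLO357 libraries were above 40 CPM and no SUIT2 library reached 0.4 CPM. KRT5 (ENSG00000186081), the basal-layer keratin on chromosome 12, had 901, 1408 and 1885 CPM in COLO357, against 0, 0.416 and 1.63 CPM in SUIT2 (log2 fold change 11.48, SE 0.594, adjusted p = 7.47e-07). KRT17 (ENSG00000128422), a keratin of basal and injured epithelium, had 430, 506 and 895 CPM in COLO357, against 0, 0.127 and 0.543 CPM in SUIT2 (log2 fold change 11.47, SE 0.357, adjusted p = 1.1e-10). TRIM29 (ENSG00000137699), a TRIM-family protein of squamous tissue, had 779, 898 and 1151 CPM in COLO357, against 0, 0.225 and 0.679 CPM in SUIT2 (log2 fold change 11.61, SE 0.368, adjusted p = 2.69e-10). For each of them the lines did not overlap. Leaving out either library of the KMT2D siRNA2 pair gave a log2 fold change of 9.95 for TP63, and leaving out the COLO357 or the SUIT2 library of the KMT2C siRNA2 pair gave 12.08 and 12.09 for KRT5.

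Adhesion genes of desmosomes in stratified epithelium went with the keratins. DSG3, the desmoglein that pemphigus antibodies bind, had 28.8, 42 and 91.9 CPM in COLO357, against 0, 0 and 0.204 CPM in SUIT2. DSC3, its desmocollin partner, had 67.3, 105 and 150 CPM in COLO357, against 0, 0.0378 and 0.272 CPM in SUIT2. Both were detected in every COLO357 library and at most faintly in SUIT2. CDH3, the P-cadherin of basal cells, had 105, 148 and 173 CPM in COLO357, against 0.913, 3.6 and 4.69 CPM in SUIT2 (log2 fold change 5.49, SE 0.2, adjusted p = 1.32e-11). DSG2 and DSC2, the forms that simple epithelium uses, were lower in COLO357 by small amounts, at log2 fold changes of −0.54 and −0.51. Other basal-like genes higher in COLO357 were FAM83A, an adaptor of growth factor signalling (log2 fold change 3.74), the glucose transporter gene SLC2A1 (log2 fold change 2.24), KRT7 (log2 fold change 1.99), FGFBP1, which carries fibroblast growth factors (log2 fold change 1.75), and KRT13 (log2 fold change 6.24). The basal-like list was not uniform. The cystatin gene CST6 had 0.0869, 0.149 and 0.349 CPM in COLO357, against 18.5, 26.1 and 33.9 CPM in SUIT2. The cofactor gene VGLL1 had no count in COLO357 and 1.09, 3.23 and 6.27 CPM in SUIT2, and AREG, an EGF receptor ligand, was also higher in SUIT2 (log2 fold change −2.63). The long noncoding UCA1 had 0, 0.145 and 0.336 CPM in COLO357, against 19.4, 76.2 and 111 CPM in SUIT2.

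Among keratins, 11 of 16 tested were called higher in COLO357 and 2 in SUIT2, and 3 did not pass. The 3 that did not pass, KRT8, KRT18 and KRT19, are keratins of simple epithelium, but KRT7, another keratin of simple and ductal epithelium, was higher in COLO357. KRT7 had 549, 724 and 804 CPM in COLO357, against 92.9, 187 and 309 CPM in SUIT2, and the lines did not overlap. KRT8 had 1706, 1962 and 2167 CPM in COLO357, against 1264, 2316 and 3059 CPM in SUIT2. Its filament partner KRT18 had 571, 649 and 737 CPM in COLO357, against 415, 749 and 1000 CPM in SUIT2. KRT19, the ductal keratin, had 708, 1233 and 1554 CPM in COLO357, against 487, 1294 and 1686 CPM in SUIT2. For KRT8, KRT18 and KRT19 the libraries of the 2 lines overlapped. KRT6A had 48.7, 193 and 276 CPM in COLO357, against 0, 0.0224 and 0.204 CPM in SUIT2. KRT81, a hair-type keratin, had 553, 646 and 856 CPM in COLO357, against 0, 0.232 and 0.358 CPM in SUIT2. Neither reached 0.4 CPM in SUIT2. KRT86 (log2 fold change 5.60) was higher in COLO357 too. KRT6A shares near-identical sequence with KRT6B and KRT6C, and KRT81 with KRT86, so that reads may have been split or lost among them. KRT80 and KRT23 were the keratins higher in SUIT2. KRT80 had 2.26, 9.93 and 14.7 CPM in COLO357, against 33.8, 66.4 and 123 CPM in SUIT2, and the lines did not overlap.

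**Figure D2:**
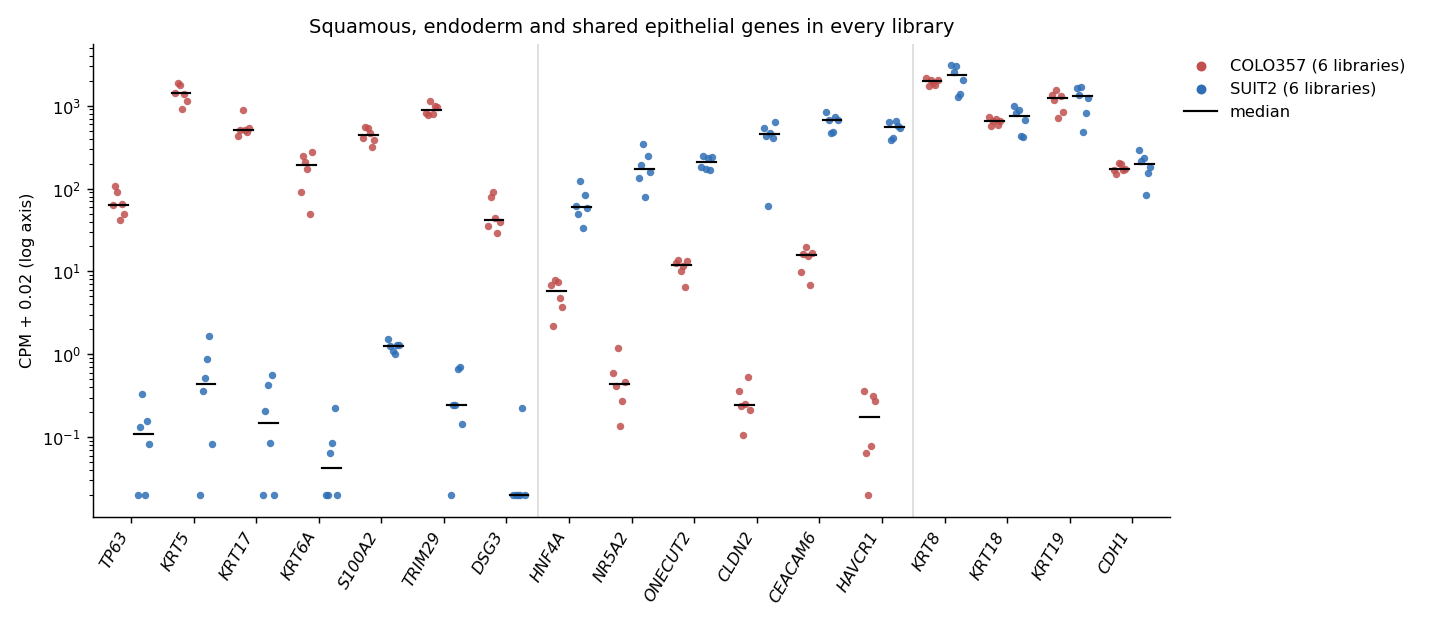
The level of 17 genes (CPM plus 0.02, log axis) is shown for each of the 6 COLO357 libraries (red, left of each pair) and the 6 SUIT2 libraries (blue), with bars at the medians. Squamous genes on the left are high in COLO357 (KRT5 median 1408 CPM, against 0.416 CPM in SUIT2), endoderm genes in the middle are high in SUIT2 (NR5A2 median 0.418 CPM in COLO357, against 174 CPM), and the simple-epithelium genes on the right overlap.

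S100A2, a calcium-binding protein gene of basal keratinocytes on chromosome 1, is shown because its promoter holds letters that AP-1 factors, dimers of FOS and JUN proteins, are known to bind. Picked for these letters, it does not stand for the other squamous genes, and the shares of promoters that hold them are given below. S100A2 had 319, 437 and 557 CPM in COLO357, against 0.978, 1.25 and 1.51 CPM in SUIT2, a log2 fold change of 8.49 (SE 0.18, adjusted p = 3.62e-14). The 250 bases before its start (RefSeq, GRCh38.p14, chr1:153565845-153566094, minus strand) are printed 5′ to 3′ with the match to TGANTCA in capitals, which begins 52 bases before the start.
S100A2: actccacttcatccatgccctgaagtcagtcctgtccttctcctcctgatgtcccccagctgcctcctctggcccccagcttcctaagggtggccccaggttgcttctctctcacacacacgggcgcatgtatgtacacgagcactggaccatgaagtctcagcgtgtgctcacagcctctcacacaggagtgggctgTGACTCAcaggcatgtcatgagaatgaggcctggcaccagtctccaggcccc

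Most endodermal transcription factors were higher in SUIT2. Of 23 factors of endoderm and pancreatic lineage matched, 19 were tested. Of these, 3 were called higher in COLO357 and 14 in SUIT2 (34% and 32.1% of all genes tested). Their median log2 fold change was −1.57 (−2.20 as the median difference in the Control pair). NR5A2 (ENSG00000116833), a nuclear receptor of pancreatic acini and liver, had 0.116, 0.418 and 1.17 CPM in COLO357, against 79.3, 174 and 346 CPM in SUIT2 (log2 fold change −8.63, SE 0.217, adjusted p = 1.34e-13). ONECUT2 (ENSG00000119547), a cut-homeobox factor of endoderm, had 6.54, 12 and 13.6 CPM in COLO357, against 168, 207 and 244 CPM in SUIT2 (log2 fold change −4.21, SE 0.132, adjusted p = 9.2e-13). HNF4A (ENSG00000101076), a nuclear receptor that keeps hepatic and intestinal genes on, had 2.17, 5.77 and 7.96 CPM in COLO357, against 33.3, 60.1 and 125 CPM in SUIT2 (log2 fold change −3.65, SE 0.278, adjusted p = 4.82e-07). In each of these, the highest COLO357 library lay below the lowest SUIT2 library. FOXA2 (log2 fold change −4.25), PDX1, the pancreatic master regulator (log2 fold change −3.56), CDX2, its intestinal counterpart (log2 fold change −2.96), HNF4G (log2 fold change −2.50) and the ductal factor SOX9 (log2 fold change −1.57) were higher in SUIT2 as well. GATA6, which is often used to mark the classical programme, had 5.33, 7.21 and 10.1 CPM in COLO357, against 7.4, 10.4 and 18.2 CPM in SUIT2 and differed less (log2 fold change −0.54, SE 0.203, adjusted p = 0.0272). Its call was lost without the COLO357 or SUIT2 library of KMT2D siRNA1, KMT2D siRNA2 or KMT2C siRNA2 (adjusted p = 0.0743 to 0.0961 in edgeR's test), and with the share of read pairs in no annotated gene as a covariate (adjusted p = 0.0555). Against this direction, FOXA1, a pioneer factor shared by many epithelia, had 49, 65.4 and 92.6 CPM in COLO357, against 10.5, 12 and 17.6 CPM in SUIT2 (log2 fold change 2.42, SE 0.165, adjusted p = 6e-09), and SOX17 was detected in COLO357 alone, at 1.09, 1.54 and 2.8 CPM. KLF5, with a median of 556 CPM in COLO357 and 391 CPM in SUIT2, and ELF3, with a median of 50.4 CPM in COLO357 and 71.7 CPM in SUIT2, did not pass over the 12 libraries. KLF5 was called, with the same direction, by DESeq2 (adjusted p = 0.0126), and by edgeR without a filter on low counts, with that covariate, with all 18 libraries fitted together or without the 3 libraries of highest such share (adjusted p = 0.000805 to 0.0215). It also passed without the COLO357 or the SUIT2 library of KMT2C siRNA2 (log2 fold changes 0.83 and 0.82), and ELF3 without either library of KMT2C siRNA1 (−0.50 and −0.52).

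NR5A2 is shown with its promoter because it was the factor of this list with the largest difference in SUIT2's favour. The 250 bases before its start (RefSeq, GRCh38.p14, chr1:200027460-200027709, plus strand) are printed 5′ to 3′, with capitals marking matches on either strand to AGATAA, a sequence that GATA6 and its relatives bind (beginning 237 and 220 bases before the start), to TATAAA of the TATA box (201 bases before) and to TGANTCA (158 bases before). No match to these letters overlaps another.
NR5A2: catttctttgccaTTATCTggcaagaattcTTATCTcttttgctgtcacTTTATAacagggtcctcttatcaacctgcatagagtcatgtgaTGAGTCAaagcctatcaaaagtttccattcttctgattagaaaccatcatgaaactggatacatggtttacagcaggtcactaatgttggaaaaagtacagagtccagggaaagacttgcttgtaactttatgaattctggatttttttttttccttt

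Markers of the classical programme did not all go with SUIT2. Of 36 matched, 23 were tested, 8 were called higher in COLO357 and 11 in SUIT2 (34% and 32.1% of all genes tested). Their median log2 fold change was −0.43. CEACAM6 (ENSG00000086548), a surface glycoprotein of gut epithelium, had 6.75, 15.8 and 19.5 CPM in COLO357, against 467, 670 and 849 CPM in SUIT2 (log2 fold change −5.55, SE 0.316, adjusted p = 1.59e-07). LGALS4, the galectin of intestinal epithelium, had 0, 0.0928 and 0.144 CPM in COLO357, against 12, 22 and 53.8 CPM in SUIT2. TSPAN8 (log2 fold change −5.12), TMEM45B (log2 fold change −4.32) and ERBB3 (log2 fold change −1.88) were higher in SUIT2, and LYZ, lysozyme, had no count in COLO357 and 2.38, 7.19 and 8.32 CPM in SUIT2. In the other direction, CEACAM5, a relative of CEACAM6, had 3.6, 8.33 and 14.5 CPM in COLO357, against 0.0652, 0.417 and 1.43 CPM in SUIT2. S100P had 107, 145 and 204 CPM in COLO357, against 0, 0.0568 and 0.403 CPM in SUIT2, and the annexin gene ANXA10, a gastric marker, had 94.6, 191 and 286 CPM in COLO357, against 0.365, 0.637 and 0.945 CPM in SUIT2 (log2 fold change 8.17, SE 0.293, adjusted p = 1.24e-10). TFF1, a gastric trefoil peptide, was low in COLO357 (0.869, 1.61 and 5.7 CPM) and did not exceed 0.0895 CPM in SUIT2. Of 25 mucin and glycan genes tested, 13 were called higher in COLO357 and 8 in SUIT2 (34% and 32.1% of all genes tested). MUC1, a membrane mucin, had 12.7, 29 and 49.9 CPM in COLO357, against 0.391, 0.66 and 1.49 CPM in SUIT2. MUC5AC, a gel-forming mucin of the stomach, had 6.44, 8.76 and 20.7 CPM in COLO357, against 0, 0.0554 and 0.189 CPM in SUIT2. MUC16, the CA125 antigen, had 5.82, 14.6 and 63.4 CPM in COLO357, against 0, 0 and 0.0448 CPM in SUIT2. These mucins were low or undetected in every SUIT2 library. The glycosyltransferase gene B3GALT5, whose product takes part in making the sialyl Lewis a antigen, had 1.4, 2.07 and 2.99 CPM in COLO357, against 75.9, 138 and 198 CPM in SUIT2 (log2 fold change −5.93, SE 0.188, adjusted p = 1.2e-12). Exocrine enzymes were nearly silent in both lines: 28 of 31 matched genes failed the filter, and of those tested CEL was higher in COLO357 (log2 fold change 3.14) and PRSS3 in SUIT2 (log2 fold change −8.87).

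Genes of epithelial junctions were called in both directions. Of 36 junction and adhesion genes tested, 12 were called higher in COLO357, 13 in SUIT2 and 11 did not pass, with a median log2 fold change of −0.02. These counts lay near the shares of all genes tested, 34% higher in COLO357 and 32.1% in SUIT2. E-cadherin, CDH1, had 150, 170 and 203 CPM in COLO357, against 83.5, 198 and 290 CPM in SUIT2, with overlapping libraries and a log2 fold change of −0.05 (SE 0.218, adjusted p = 0.861). EPCAM was higher in SUIT2 (log2 fold change −1.37, SE 0.142, adjusted p = 6.62e-07). GRHL2 (ENSG00000083307), a grainyhead factor that activates junction genes, had 0, 0.136 and 0.174 CPM in COLO357, against 51.9, 82.3 and 153 CPM in SUIT2 (log2 fold change −9.50, SE 0.237, adjusted p = 1.32e-13). RAB25, a GTPase of apical recycling, had 0, 0.0536 and 0.127 CPM in COLO357, against 23, 43.7 and 52.8 CPM in SUIT2 (log2 fold change −9.40, SE 0.29, adjusted p = 7.7e-13). PROM1, the apical membrane protein CD133, had 0.116, 0.214 and 0.435 CPM in COLO357, against 19.8, 30.3 and 39.7 CPM in SUIT2. None of these 3 genes reached 0.5 CPM in any COLO357 library. Tight junction genes OCLN (log2 fold change −2.08) and CGN (log2 fold change −2.11) were higher in SUIT2. JUP, the plakoglobin of desmosomes (log2 fold change 2.17), the desmoplakin gene DSP (log2 fold change 1.19), CLDN7 (log2 fold change 2.50), the polarity gene LLGL2 (log2 fold change 2.59) and the protease inhibitor gene SPINT1 (log2 fold change 1.59) were higher in COLO357.

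Mesenchymal genes were called in both directions. Among 28 tested, 13 were called higher in COLO357 and 11 in SUIT2 (34% and 32.1% of all genes tested), with a median log2 fold change of 0.26. VIM, the intermediate filament of mesenchymal cells, had 33.3, 90.6 and 119 CPM in COLO357, against 200, 326 and 783 CPM in SUIT2 (log2 fold change −2.34, SE 0.428, adjusted p = 0.0017). AXL (ENSG00000167601), a receptor tyrosine kinase tied to mesenchymal states, had 2.69, 4.17 and 10.7 CPM in COLO357, against 102, 195 and 368 CPM in SUIT2 (log2 fold change −5.26, SE 0.35, adjusted p = 8.25e-07). ZEB1, a repressor of CDH1, was higher in SUIT2 by a log2 fold change of −1.21, while SNAI2, another such repressor, was higher in COLO357 (log2 fold change 2.37). CALD1, an actin-binding protein of contractile cells, had 56.2, 73.6 and 106 CPM in COLO357, against 1.05, 1.89 and 2.45 CPM in SUIT2 (log2 fold change 5.42, SE 0.15, adjusted p = 2.67e-13). TAGLN, another actin-binding gene of smooth muscle, had 11.1, 29.8 and 38.2 CPM in COLO357, against 0.717, 1.31 and 2.31 CPM in SUIT2. N-cadherin, CDH2, had 2.42, 4.51 and 6.41 CPM in COLO357, against 0.358, 0.537 and 0.913 CPM in SUIT2. The lines did not overlap for any of the 3. COL1A1 of collagen I had 21.4, 60.2 and 151 CPM in COLO357, against 1.21, 2.63 and 5.3 CPM in SUIT2. COL5A1, a fibrillar collagen that accompanies it, had 19.9, 33.1 and 80.7 CPM in COLO357, against 0.13, 0.269 and 0.757 CPM in SUIT2. These are also genes of fibroblasts, of whose 12 markers 4 passed the filter, 3 were called higher in COLO357 and 0 in SUIT2, with summed levels of 70.3 to 202 CPM in COLO357 and 3.15 to 6.93 CPM in SUIT2. PDGFRB stayed at or under 0.261 CPM in COLO357 and 0.13 CPM in SUIT2, and DCN at or under 0.0636 and 0.0457 CPM.

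Collagen IV was carried by COLO357, and the nidogens were exchanged between the lines. COL4A1 (ENSG00000187498) and COL4A2 (ENSG00000134871), the collagen IV chains found in every basement membrane, were high in every COLO357 library. COL4A1 had 359, 577 and 579 CPM in COLO357, against 0.063, 0.295 and 0.492 CPM in SUIT2 (log2 fold change 10.88, SE 0.229, adjusted p = 3.62e-14). COL4A2 had 367, 552 and 710 CPM in COLO357, against 0.136, 0.33 and 0.716 CPM in SUIT2 (log2 fold change 10.42, SE 0.218, adjusted p = 3.62e-14). No SUIT2 library reached 1 CPM for either. COL4A5 had 46.4, 75.5 and 99.2 CPM in COLO357, against 0.0895, 0.287 and 0.568 CPM in SUIT2. COL4A6 had 36.6, 61.4 and 84 CPM in COLO357, against 0, 0.11 and 0.227 CPM in SUIT2. COL4A3 (5.35, 11.2 and 14 CPM in COLO357) and COL4A4 (23.1, 42.8 and 51.7 CPM in COLO357) were also higher in COLO357, against at most 0.326 and 1.49 CPM in SUIT2. All 6 chains of the family were thus called higher in COLO357. Nidogens, which bind laminin to collagen IV, went apart. NID1 (ENSG00000116962) had 0.0961, 0.196 and 0.261 CPM in COLO357, against 170, 355 and 485 CPM in SUIT2 (log2 fold change −10.76, SE 0.24, adjusted p = 5.43e-14). In the other direction, NID2 (ENSG00000087303) had 471, 589 and 751 CPM in COLO357, against 0.594, 0.945 and 1.29 CPM in SUIT2 (log2 fold change 9.29, SE 0.2, adjusted p = 3.92e-14). In neither gene did a library of 1 line come within 100-fold of any library of the other.

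The COL4A1 and COL4A2 genes lie head to head on chromosome 13 with starts 127 bases apart in RefSeq (GRCh38.p14), so that 1 stretch is upstream of both. COL4A6 and COL4A5 on chromosome X and COL4A4 and COL4A3 on chromosome 2 are arranged in the same way, with 380 and 419 bases between starts. The stretch between the COL4A1 and COL4A2 starts (chr13:110307158-110307283, minus strand) is shown because the genes that flank it moved together. It is printed on the strand of COL4A1, 5′ to 3′, and holds no capitals because no searched motif is marked in it.
COL4A1: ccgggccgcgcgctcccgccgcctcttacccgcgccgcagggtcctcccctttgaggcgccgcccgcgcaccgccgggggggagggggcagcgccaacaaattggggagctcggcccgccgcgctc

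Several laminin chains did not differ past the threshold. LAMC1, the gamma chain of most laminins, had 353, 571 and 670 CPM in COLO357, against 412, 485 and 664 CPM in SUIT2, with overlapping libraries. LAMB1 (log2 fold change −0.17) and LAMA3 (log2 fold change 0.04) did not pass either. LAMB3 had 199, 396 and 519 CPM in COLO357, against 52.6, 96.9 and 158 CPM in SUIT2 (log2 fold change 1.87, SE 0.128, adjusted p = 5.16e-09). LAMA4, a chain of vascular and mesenchymal laminins, had 3.25, 5.12 and 10.2 CPM in COLO357, against 121, 171 and 227 CPM in SUIT2 (log2 fold change −4.92, SE 0.147, adjusted p = 5.33e-13). HSPG2, the proteoglycan perlecan, had 15.4, 26.5 and 40.6 CPM in COLO357, against 155, 315 and 617 CPM in SUIT2 (log2 fold change −3.57, SE 0.171, adjusted p = 2.24e-10). Among other collagens, COL12A1, which coats collagen fibrils, had 342, 469 and 711 CPM in COLO357, against 0.908, 1.41 and 2.22 CPM in SUIT2. COL7A1, the anchoring fibril collagen, had 218, 343 and 529 CPM in COLO357, against 5.9, 13.3 and 34 CPM in SUIT2. COL17A1, a hemidesmosome collagen, went the other way and had 34.8, 71.2 and 128 CPM in COLO357, against 190, 415 and 859 CPM in SUIT2. Over the whole matrix and protease list, 22 of 45 tested genes were called higher in COLO357 and 15 in SUIT2 (34% and 32.1% of all genes tested). The median log2 fold change of the list was 0.52. Proteases differed in both directions. MMP1 (ENSG00000196611), interstitial collagenase, had 0.116, 0.656 and 1.1 CPM in COLO357, against 421, 684 and 3058 CPM in SUIT2 (log2 fold change −10.43, SE 0.653, adjusted p = 3.46e-06). MMP7, matrilysin, had 1.27, 3.01 and 4.78 CPM in COLO357, against 41.9, 66 and 115 CPM in SUIT2. PLAU, urokinase, had 27.9, 44.7 and 81.5 CPM in COLO357, against 449, 744 and 2133 CPM in SUIT2 (log2 fold change −4.09, SE 0.203, adjusted p = 1.78e-09). The lines did not overlap for any of the 3. PLAUR, the urokinase receptor (log2 fold change 1.60), the cathepsin gene CTSL (log2 fold change 2.73) and MMP2, with 4.52, 15.1 and 24.3 CPM in COLO357 and at most 0.0448 CPM in SUIT2, went the other way. ADAMTS1, an aggrecanase, had no count in SUIT2 and was at least 1766-fold higher in COLO357.

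Most integrin genes were higher in SUIT2. Of 16 tested, 3 were called higher in COLO357 and 10 in SUIT2 (34% and 32.1% of all genes tested). The summed level of the integrins was 2695 to 3810 CPM in COLO357 and 6382 to 10854 CPM in SUIT2. ITGB1 (ENSG00000150093), the beta chain shared by most matrix-binding integrins, had 809, 978 and 1288 CPM in COLO357, against 2704, 4550 and 5796 CPM in SUIT2 (log2 fold change −2.06, SE 0.145, adjusted p = 8.58e-09). ITGA6, a laminin-binding alpha chain, had 401, 479 and 758 CPM in COLO357, against 1048, 1894 and 2270 CPM in SUIT2 (log2 fold change −1.77, SE 0.146, adjusted p = 5.5e-08). ITGB5, which binds vitronectin, had 26, 32.4 and 35 CPM in COLO357, against 221, 294 and 346 CPM in SUIT2 (log2 fold change −3.18, SE 0.118, adjusted p = 5.05e-12). Every SUIT2 library lay above every COLO357 library for the 3 genes. ITGA1, a collagen-binding chain (log2 fold change 2.01), ITGB6, the epithelial chain that activates latent TGF-beta (log2 fold change 1.51), and ITGAE (log2 fold change 0.64) were higher in COLO357, and ITGA3 did not pass (log2 fold change 0.06).

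**Figure D3:**
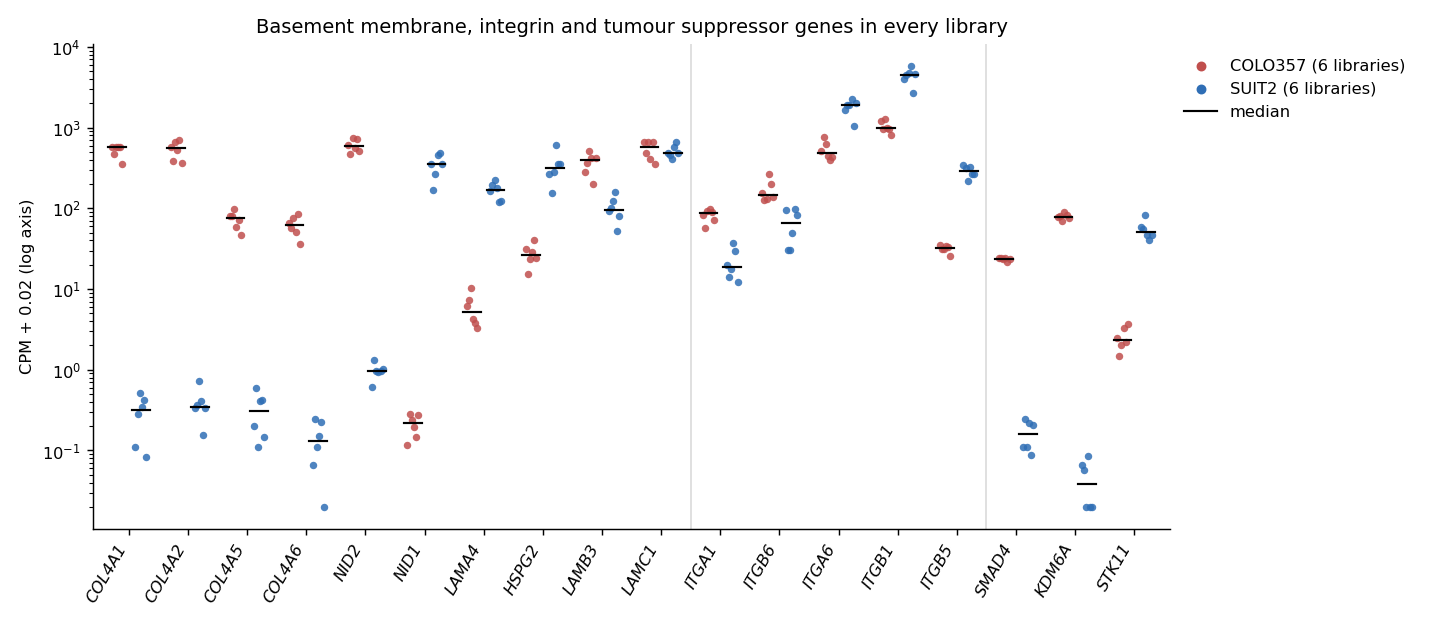
The level of 18 basement membrane, integrin and tumour suppressor genes (CPM plus 0.02, log axis) is shown in the 6 COLO357 libraries (red, left of each pair) and the 6 SUIT2 libraries (blue), with bars at the medians. The collagen IV chains and NID2 sit high in COLO357 and NID1 in SUIT2, LAMC1 overlaps, and SMAD4 and KDM6A stay at or below 0.227 CPM in every SUIT2 library.

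Several tumour suppressor transcripts were nearly missing from 1 line. SMAD4 (ENSG00000141646), the shared mediator of TGF-beta and BMP signals on chromosome 18, had 21.6, 23.9 and 24.5 CPM in COLO357, against 0.0679, 0.14 and 0.227 CPM in SUIT2 (log2 fold change 7.30, SE 0.235, adjusted p = 1.17e-12). KDM6A (ENSG00000147050), a histone H3 lysine demethylase that works in the same complexes as KMT2C and KMT2D, had 68.8, 78.8 and 89.2 CPM in COLO357, against 0, 0.0189 and 0.0652 CPM in SUIT2, and its ratio of counts was 2977-fold (95% counting interval 1018 to 14439). Neither gene was above 0.3 CPM in SUIT2 with any siRNA. STK11 (ENSG00000118046), the LKB1 kinase, had 1.48, 2.31 and 3.63 CPM in COLO357, against 40.8, 51.6 and 83 CPM in SUIT2 (log2 fold change −4.48, SE 0.229, adjusted p = 7.97e-10). It was detected in all 6 COLO357 libraries. CDKN2B, an inhibitor of CDK4 and CDK6, had 25.4, 43.4 and 63.5 CPM in COLO357, against 0, 0 and 0.204 CPM in SUIT2. Its neighbour CDKN2A had 29.9, 35.5 and 42.9 CPM in COLO357, against 4.42, 7.35 and 14.9 CPM in SUIT2 (log2 fold change 2.22, SE 0.181, adjusted p = 4.44e-08). MTAP, which lies beside them on chromosome 9, was higher in SUIT2 (log2 fold change −1.51). Values of transcripts do not show whether a gene is mutated or deleted, which was not tested.

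Among genes of the cell cycle brake and its regulators, 16 of 40 tested were called higher in COLO357 and 13 in SUIT2 (median log2 fold change 0.01). The shares over all genes tested were 34% and 32.1%. CCND1, cyclin D1, had 653, 1501 and 1619 CPM in COLO357, against 116, 398 and 579 CPM in SUIT2. CDK6, a kinase that it activates, had 709, 1341 and 1618 CPM in COLO357, against 179, 410 and 649 CPM in SUIT2. CCNE1, cyclin E1, had 17.6, 21.6 and 27.9 CPM in COLO357, against 4.54, 6.53 and 8.95 CPM in SUIT2. The 3 were higher in every COLO357 library than in any SUIT2 library, whereas CDK4 (log2 fold change −1.29) and the inhibitor gene CDKN1B (log2 fold change −1.16) were higher in SUIT2. Some genes of the DNA damage response were higher in COLO357, among them CDKN1A (log2 fold change 1.39) and PHLDA3 (log2 fold change 4.97). Others were higher in SUIT2, among them BBC3 (log2 fold change −1.49), ZMAT3 (log2 fold change −0.98) and BAX (log2 fold change −0.70). MDM2 (log2 fold change −0.10), TNFRSF10B (log2 fold change 0.05) and RRM2B (log2 fold change −0.13) did not pass. Of 24 genes of DNA replication, 12 were called higher in COLO357 and 4 in SUIT2, and of 25 mitotic genes 3 were higher in COLO357 and 11 in SUIT2. PCNA, the replication clamp, had 163, 285 and 321 CPM in COLO357, against 78.3, 107 and 145 CPM in SUIT2. MKI67, the proliferation antigen, had 384, 727 and 881 CPM in COLO357, against 458, 1281 and 1783 CPM in SUIT2, with overlapping libraries. The spindle gene TPX2 on chromosome 20 had 168, 187 and 212 CPM in COLO357, against 540, 664 and 712 CPM in SUIT2 (log2 fold change −1.80, SE 0.108, adjusted p = 1.21e-09).

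TGF-beta, BMP and SMAD genes were called in both directions, 18 of 43 higher in COLO357 and 20 in SUIT2 (34% and 32.1% of all genes tested). Among ligands, TGFB2 was higher in COLO357 (log2 fold change 2.45) and TGFB1 (log2 fold change −2.59) and BMP4 (log2 fold change −3.39) in SUIT2. Among receptors, TGFBR1 (log2 fold change 1.75) and BMPR1B (log2 fold change 3.72) were higher in COLO357, and TGFBR2 (log2 fold change −1.46), the co-receptor TGFBR3 (log2 fold change −3.11) and BMPR2 (log2 fold change −1.38) in SUIT2. The activin antagonists were high in COLO357. FSTL3 had 207, 356 and 480 CPM in COLO357, against 3.72, 7.61 and 13.5 CPM in SUIT2 (log2 fold change 5.54, SE 0.32, adjusted p = 1.81e-07). Follistatin, FST, had 8.11, 43.7 and 84.6 CPM in COLO357, against 0, 0 and 0.0679 CPM in SUIT2, a ratio of counts of 4444-fold (95% counting interval 797 to 175583). SMAD3, an intracellular transducer, had 38.2, 50.6 and 60.8 CPM in COLO357, against 150, 230 and 254 CPM in SUIT2 (log2 fold change −2.07, SE 0.12, adjusted p = 7.61e-10). The BMP target genes ID1 and ID3 were higher in COLO357. ID1 had 74.2, 85.2 and 119 CPM in COLO357, against 17.2, 30.7 and 48.7 CPM in SUIT2. ID3 had 8.31, 9.61 and 12.2 CPM in COLO357, against 0.0652, 0.131 and 0.32 CPM in SUIT2. Neither gene overlapped between the lines. ID2, of the same family, went the other way and had 4.16, 8.26 and 13.9 CPM in COLO357, against 36.6, 43.6 and 60.1 CPM in SUIT2 (log2 fold change −2.53, SE 0.15, adjusted p = 9.75e-10). The inhibitory SMAD genes SMAD6 (log2 fold change −0.83) and SMAD7 (log2 fold change −0.99) were also higher in SUIT2.

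Receptor tyrosine kinases and their ligands were called in both directions, 22 of 49 higher in COLO357 and 20 in SUIT2 (34% and 32.1% of all genes tested). EGFR had 174, 250 and 289 CPM in COLO357, against 823, 878 and 1338 CPM in SUIT2 (log2 fold change −1.96, SE 0.126, adjusted p = 2.45e-09). MET, the receptor of hepatocyte growth factor, had 65, 147 and 232 CPM in COLO357, against 208, 878 and 1462 CPM in SUIT2 (log2 fold change −2.40, SE 0.192, adjusted p = 2.08e-07). EGFR did not overlap between the lines, and MET did. MERTK, a relative of AXL, had 0.13, 0.212 and 0.336 CPM in COLO357, against 21.1, 50.9 and 84.9 CPM in SUIT2 (log2 fold change −7.74, SE 0.199, adjusted p = 1.54e-13). The insulin receptor gene INSR had 0.892, 1.4 and 1.53 CPM in COLO357, against 17.2, 27.6 and 43.1 CPM in SUIT2 (log2 fold change −4.41, SE 0.219, adjusted p = 1.27e-10). COLO357 in turn had more IGF1R, the insulin-like growth factor receptor, at 130, 164 and 187 CPM, against 38.8, 46.5 and 58.6 CPM in SUIT2 (log2 fold change 1.80, SE 0.109, adjusted p = 1.32e-09). Receptors of neural lineages, NTRK2 (6.06, 9.52 and 16.3 CPM), RET (4.17, 6.9 and 8.83 CPM) and ROR2 (7, 8.01 and 10 CPM), were detected in COLO357 and did not exceed 0.0914 CPM in SUIT2. Ligands of the EGF receptor were also exchanged. HBEGF had 28.4, 71.6 and 119 CPM in COLO357, against 6.93, 8.58 and 14.6 CPM in SUIT2. EREG, epiregulin, had 59.4, 178 and 308 CPM in COLO357, against 876, 1314 and 2410 CPM in SUIT2. TGFA had 68, 77.2 and 124 CPM in COLO357, against 179, 376 and 418 CPM in SUIT2. HBEGF was thus higher in COLO357 and the other two in SUIT2. The ERBB4 ligand gene NRG4 had 35.4, 50.7 and 57.2 CPM in COLO357, against 1.83, 2.65 and 3.61 CPM in SUIT2. PDGFA (log2 fold change 2.71) and the ephrin gene EFNA1 (log2 fold change 3.68) were higher in COLO357, and VEGFC had 16, 17.4 and 24.2 CPM there, against at most 0.134 CPM in SUIT2.

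Of 39 genes of the MAPK pathway and its output, 11 were called higher in COLO357 and 20 in SUIT2 (34% and 32.1% of all genes tested). Their median log2 fold change was −0.44, and the medians of the siRNA pairs ran from −0.83 to −0.16. FOSL1, an AP-1 subunit that the pathway induces, had 6.15, 7.12 and 30 CPM in COLO357, against 61.2, 165 and 292 CPM in SUIT2 (log2 fold change −3.88, SE 0.269, adjusted p = 3.4e-07). ETV1, an ETS factor, had 1.21, 1.75 and 2.22 CPM in COLO357, against 47.6, 75.6 and 104 CPM in SUIT2 (log2 fold change −5.42, SE 0.165, adjusted p = 6.6e-13). The lines did not overlap for either. The feedback inhibitor genes SPRY4 (log2 fold change −3.16), SPRED2 (log2 fold change −1.93) and DUSP6 (log2 fold change −1.24) were higher in SUIT2, but the phosphatase genes DUSP1 (log2 fold change 4.22) and DUSP4 (log2 fold change 2.10) and the AP-1 gene FOSL2 (log2 fold change 2.71) were higher in COLO357. MYC did not pass (log2 fold change −0.08).

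WNT and NOTCH genes were called higher in COLO357 for 21 of 51 tested and in SUIT2 for 14 (34% and 32.1% of all genes tested). WNT5A (ENSG00000114251), a WNT ligand of the noncanonical branch, had 63.7, 106 and 135 CPM in COLO357, against 0, 0.0894 and 0.34 CPM in SUIT2. NOTCH3 had 31.3, 57.7 and 65.5 CPM in COLO357, against 0.456, 0.676 and 1.64 CPM in SUIT2 (log2 fold change 5.92, SE 0.227, adjusted p = 1.01e-11). Its ligand genes JAG1 (log2 fold change 1.94) and DLL1 (log2 fold change 5.13), with NOTCH1 (log2 fold change 1.37) and the target gene NRARP (log2 fold change 2.51), went the same way. NOTCH2 was higher in SUIT2 (log2 fold change −1.69). WNT7B (log2 fold change −2.59), the nuclear effector gene TCF7L2 (log2 fold change −2.49) and DKK3 (log2 fold change −6.11) were higher in SUIT2 too.

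Enzymes of detoxification and redox balance were mostly higher in COLO357. Of 54 tested, 35 were called higher in COLO357 and 13 in SUIT2, with a median log2 fold change of 1.78 that stayed between 1.45 and 1.82 over the 6 siRNA pairs. Their summed level was 8530 to 14065 CPM in COLO357 and 2902 to 4593 CPM in SUIT2. AKR1C2, a keto-steroid reductase, had 873, 1653 and 2278 CPM in COLO357, against 4.69, 11.9 and 24.7 CPM in SUIT2 (log2 fold change 7.17, SE 0.34, adjusted p = 4.05e-08). AKR1C1 and AKR1C3 had log2 fold changes of 6.04 and 4.59. The 3 genes are neighbours on chromosome 10 with near-identical sequence and may share reads. NQO1, a quinone reductase, had 1482, 1907 and 2121 CPM in COLO357, against 302, 402 and 656 CPM in SUIT2 (log2 fold change 2.18, SE 0.134, adjusted p = 1.49e-09). GCLC and GCLM, the subunits of the enzyme that limits glutathione synthesis, had log2 fold changes of 2.34 and 2.40. SLC7A11, which imports the cystine it needs, had 313, 568 and 647 CPM in COLO357, against 24.5, 51.4 and 107 CPM in SUIT2 (log2 fold change 3.41, SE 0.205, adjusted p = 1.68e-08). ME1 (log2 fold change 2.58), which supplies NADPH, went the same way. The aldehyde dehydrogenases were exchanged. ALDH1A1 had 74.4, 142 and 245 CPM in COLO357, against 0, 0.0772 and 0.358 CPM in SUIT2 (log2 fold change 9.94, SE 0.263, adjusted p = 2.76e-13). ALDH3A1, known from cornea and stomach, had 176, 256 and 457 CPM in COLO357, against 2.99, 7.38 and 19.4 CPM in SUIT2. ALDH1A3, which makes retinoic acid as ALDH1A1 does, had 32.7, 42.7 and 58.4 CPM in COLO357, against 259, 452 and 623 CPM in SUIT2 (log2 fold change −3.38, SE 0.241, adjusted p = 2.97e-07). CYP1B1 (log2 fold change 3.59) was higher in COLO357, and CYP2S1 (log2 fold change −5.86), CYP3A5 (log2 fold change −2.53) and GSTM3 (log2 fold change −2.31) in SUIT2.

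Transporters differed by member, with 21 of 48 tested called higher in COLO357 and 18 in SUIT2 (34% and 32.1% of all genes tested). The glutamate transporters were exchanged. SLC1A3 had 92.1, 117 and 164 CPM in COLO357, against 0.643, 0.796 and 1.5 CPM in SUIT2 (log2 fold change 7.15, SE 0.223, adjusted p = 2.01e-12). SLC1A1 had 1.53, 3.38 and 4.07 CPM in COLO357, against 115, 245 and 448 CPM in SUIT2 (log2 fold change −6.33, SE 0.144, adjusted p = 6.52e-14). The water and glycerol channel gene AQP3 had 392, 553 and 884 CPM in COLO357, against 1.39, 4.67 and 8.49 CPM in SUIT2 (log2 fold change 7.02, SE 0.296, adjusted p = 4.85e-09). The peptide transporter gene SLC15A1 had 0.529, 1.04 and 1.4 CPM in COLO357, against 86.7, 118 and 186 CPM in SUIT2 (log2 fold change −6.98, SE 0.188, adjusted p = 2.21e-13). The chloride channel gene CFTR had 0, 0.0726 and 0.348 CPM in COLO357, against 6.55, 14.1 and 29.1 CPM in SUIT2. Of the drug exporters, ABCC2 (log2 fold change 4.28) and ABCC1 (log2 fold change 1.16) were higher in COLO357 and ABCC4 (log2 fold change −2.78) in SUIT2. The large neutral amino acid transporter genes SLC7A5 (log2 fold change 2.06) and SLC3A2 (log2 fold change 2.15) and the lactate exporter gene SLC16A3 (log2 fold change 3.60) were higher in COLO357.

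Chemokines and cytokines that differed were mostly higher in COLO357, and they varied among its libraries. Of 36 tested, 18 were called higher in COLO357 and 3 in SUIT2, and the median log2 difference was 0.39 in the Control pair and up to 2.40 in the others. CXCL1 (ENSG00000163739), a ligand of the neutrophil receptor CXCR2, had 248, 616 and 1018 CPM in COLO357, against 0.504, 0.925 and 3.47 CPM in SUIT2 (log2 fold change 8.52, SE 0.608, adjusted p = 7.77e-06). CXCL5, another such ligand, had 125, 1020 and 1161 CPM in COLO357, against 0.0378, 0.3 and 1.07 CPM in SUIT2. CXCL8, interleukin 8, had 52.7, 128, 120, 631, 27.5 and 315 CPM in COLO357 with Control siRNA, KMT2D siRNA1, KMT2D siRNA2 and KMT2C siRNA1, siRNA2 and siRNA3, against 4.48, 1.21, 4.3, 4.3, 1.83 and 2.02 CPM in SUIT2 in that order. The lines did not overlap, although the COLO357 libraries differed among themselves over more than 20-fold. CXCL6 had no count in SUIT2 and was at least 448-fold higher in COLO357. With CXCL3 these 5 genes are consecutive on chromosome 4 in the order of 10787 genes described below, and CXCL1, CXCL2 and CXCL3 are similar enough to share reads. IL6 had 3.48, 14.3 and 21.4 CPM in COLO357, against 0, 0 and 0.0448 CPM in SUIT2. IL1A, which signals through the interleukin 1 receptor, had 9.8, 30.2 and 42.2 CPM in COLO357, against 0, 0.296 and 0.587 CPM in SUIT2. The complement gene C3 had 158, 337 and 433 CPM in COLO357, against 0.13, 0.518 and 0.777 CPM in SUIT2 (log2 fold change 9.22, SE 0.284, adjusted p = 1.7e-11). BIRC3, an apoptosis inhibitor that NF-kB induces, had 170, 677 and 1064 CPM in COLO357, against 54.4, 103 and 334 CPM in SUIT2, with overlapping libraries, while NFKB2 (log2 fold change 0.09) did not pass and TNFSF15 was higher in SUIT2 (log2 fold change −3.49).

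CXCL8 is shown with its promoter as the gene of this cluster whose levels spread most among COLO357 libraries. The 250 bases before its start (RefSeq, GRCh38.p14, chr4:73740319-73740568, plus strand) are printed 5′ to 3′, with capitals marking TGANTCA (beginning 137 bases before the start) and TATAAA (31 bases before).
CXCL8: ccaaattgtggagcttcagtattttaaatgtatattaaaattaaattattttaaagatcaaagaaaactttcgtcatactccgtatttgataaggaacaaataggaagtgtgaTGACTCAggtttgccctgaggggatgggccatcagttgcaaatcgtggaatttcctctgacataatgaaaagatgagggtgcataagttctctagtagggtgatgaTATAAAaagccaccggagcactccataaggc

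S100 and annexin genes were called higher in COLO357 for 13 of 22 tested and in SUIT2 for 6 (median log2 fold change 1.11). S100A14 had 62.3, 116 and 151 CPM in COLO357, against 0.0679, 0.128 and 0.274 CPM in SUIT2 (log2 fold change 9.31, SE 0.229, adjusted p = 1.32e-13). S100A9, a subunit of the neutrophil protein calprotectin, had 9.51, 30.5 and 61.3 CPM in COLO357 and no count in SUIT2. The annexin gene ANXA4 had 25.1, 48.7 and 59.5 CPM in COLO357, against 234, 310 and 427 CPM in SUIT2 (log2 fold change −2.86, SE 0.148, adjusted p = 2.07e-10), and ANXA2 did not pass (log2 fold change 0.07).

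Of 47 interferon response genes, 15 were called higher in COLO357, 10 higher in SUIT2 and 22 did not pass. Among all genes tested, 34% were higher in COLO357 and 32.1% in SUIT2. The median log2 difference of the list lay between −0.44 and 0.80 over the siRNA pairs and at −0.37 in the Control pair. SAMD9 had 326, 495 and 602 CPM in COLO357, against 56.8, 101 and 110 CPM in SUIT2 (log2 fold change 2.42, SE 0.148, adjusted p = 1.74e-09). IFITM1 (log2 fold change 3.93), IFITM2 (log2 fold change 3.99) and IFITM3 (log2 fold change 1.66), which block virus entry and share sequence, were higher in COLO357, as was TRIM22 (log2 fold change 6.70). GBP2 (log2 fold change −3.01) and the regulator gene IRF7 (log2 fold change −2.80) were higher in SUIT2. Genes of antigen presentation were called higher in COLO357 for 10 of 28 tested and in SUIT2 for 11, near the same shares. The class I gene HLA-B (log2 fold change 1.95), B2M (log2 fold change 1.10) and the class I activator gene NLRC5 (log2 fold change 3.74) were higher in COLO357, and HLA-C (log2 fold change −1.44), TAPBP (log2 fold change −1.07) and CD74 (log2 fold change −3.70) in SUIT2. ERAP2, an aminopeptidase that trims antigens, had 13.3, 15.6 and 18.8 CPM in COLO357, against 268, 332 and 499 CPM in SUIT2 (log2 fold change −4.41, SE 0.123, adjusted p = 2.76e-13). HLA alleles that differ from the reference sequence can lose reads, which was not tested.

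Of 20 genes of fetal growth and insulin-like growth factors, 7 were called higher in COLO357 and 11 in SUIT2 (34% and 32.1% of all genes tested). IGF2 (ENSG00000167244), the fetal growth factor, had 0.217, 0.416 and 0.673 CPM in COLO357, against 49.4, 132 and 543 CPM in SUIT2 (log2 fold change −8.60, SE 0.418, adjusted p = 4.76e-08). HMGA2, an architectural chromatin protein of embryonic tissue, had 8.34, 12.8 and 30.3 CPM in COLO357, against 189, 401 and 857 CPM in SUIT2 (log2 fold change −4.82, SE 0.222, adjusted p = 1.3e-09). IGFBP1, which binds insulin-like growth factors, had 0.696, 1.21 and 2.97 CPM in COLO357, against 80.4, 114 and 658 CPM in SUIT2. No COLO357 library overlapped with SUIT2 for the 3 genes. Of the mRNA-binding proteins of fetal tissue, IGF2BP1 had 11, 17.7 and 19.9 CPM in COLO357 and at most 0.0378 CPM in SUIT2, and IGF2BP3 was higher in SUIT2 (log2 fold change −2.60). The imprinted genes MEST (log2 fold change 4.75) and PEG10 (log2 fold change 1.63) were higher in COLO357. Cancer-testis antigens, which are silent in most adult tissues, were tested for 12 of 63 matched genes. COLO357 was higher for 9 and SUIT2 for 1 (34% and 32.1% of all genes tested). The median log2 fold change was 7.39, or 6.38 with the 5 genes that had no count in a line at their bound. As differences of log2 CPM, the medians of the 6 siRNA pairs were smaller, from 4.32 to 4.75, with 4.58 in the Control pair. Genes on in 1 line alone passed the filter through that line, so these medians describe the tested genes only. MAGEA3 (8.51, 13.7 and 16.5 CPM in COLO357) and CT83 (6.44, 8.41 and 11.5 CPM in COLO357) had no count in SUIT2, MAGEA6 may share reads with MAGEA3, and PRAME had 6.3, 9.34 and 12.3 CPM in COLO357, against 12.3, 23.9 and 37.3 CPM in SUIT2.

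Homeobox genes of the HOX clusters, which record body position, differed by cluster and member. In HOXB, 6 of 9 tested genes were called higher in COLO357 and 0 in SUIT2. HOXB2 had 9.42, 12.8 and 17.7 CPM in COLO357, against 0.151, 0.413 and 0.587 CPM in SUIT2. HOXB4 had 8.73, 9.37 and 11.7 CPM in COLO357, against 0.13, 0.189 and 0.34 CPM in SUIT2. In HOXA, 1 of 7 tested genes was called higher in COLO357 and 5 higher in SUIT2. HOXA11 had 6.71, 9.92 and 10.6 CPM in COLO357 and no count in SUIT2, and HOXA13 (log2 fold change −1.68) and HOXA9 (log2 fold change −1.88) were among those higher in SUIT2. HOXC10 had 17.1, 17.9 and 23.7 CPM in COLO357, against 0.063, 0.385 and 0.522 CPM in SUIT2. HOXD8 had 8.3, 12.7 and 14 CPM in COLO357, against 0.183, 0.359 and 0.403 CPM in SUIT2.

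Neural and neuroendocrine genes were also divided, 14 of 29 higher in COLO357 and 9 in SUIT2 (34% and 32.1% of all genes tested). The calcium buffers were exchanged. CALB1, calbindin, had 154, 197 and 282 CPM in COLO357, against 0.228, 0.706 and 1.44 CPM in SUIT2 (log2 fold change 8.19, SE 0.209, adjusted p = 1.42e-13). CALB2, calretinin, had 1.09, 2.24 and 3.25 CPM in COLO357, against 45.8, 81.1 and 168 CPM in SUIT2 (log2 fold change −5.33, SE 0.344, adjusted p = 3.51e-07). The guidance cue gene SEMA3A was higher in COLO357 (log2 fold change 2.42) and its receptor gene NRP1 in SUIT2 (log2 fold change −2.80). ISL1, a factor of islet and neural development, had 0.51, 0.668 and 1.15 CPM in COLO357, against 14.3, 20.1 and 46.3 CPM in SUIT2.

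Metabolic genes were called in both directions, as were all genes tested (34% higher in COLO357 and 32.1% in SUIT2). Of 28 sterol and fatty acid synthesis genes, 11 were called higher in COLO357 and 9 in SUIT2, and the median moved with the siRNA pair, from −0.53 in the lowest to 0.95 in the highest. FADS2, a fatty acid desaturase, had 92.4, 138 and 154 CPM in COLO357, against 6.76, 14 and 25.2 CPM in SUIT2 (log2 fold change 3.13, SE 0.181, adjusted p = 2.65e-09). In glycolysis, 13 of 32 were higher in COLO357 and 9 in SUIT2. GPI, glucose phosphate isomerase on chromosome 19, had 645, 814 and 1056 CPM in COLO357, against 112, 149 and 158 CPM in SUIT2 (log2 fold change 2.52, SE 0.112, adjusted p = 3.88e-11). PFKFB3, which sets the rate of phosphofructokinase, had 22.4, 26.9 and 35.9 CPM in COLO357, against 142, 293 and 532 CPM in SUIT2 (log2 fold change −3.38, SE 0.218, adjusted p = 4.81e-08). Among 28 genes often used as references, 15 were called higher in COLO357, 8 in SUIT2 and 5 did not pass. GAPDH (log2 fold change 0.48), HPRT1 (log2 fold change −1.30) and SDHA (log2 fold change 1.43) all passed, while VCP (log2 fold change −0.03) and SNRPD3 (log2 fold change −0.14) did not.

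Chromatin regulators and tumour suppressors mostly differed by less than 2-fold. Of 36 tested, 6 were called higher in COLO357 and 19 in SUIT2 (34% and 32.1% of all genes tested). Past 2-fold were 2 and 3 of them (13% and 11.3% of all genes tested). Among SWI/SNF remodeller subunits, ARID1A (log2 fold change 0.66) and ARID1B (log2 fold change 0.91) were higher in COLO357, and PBRM1 (log2 fold change −0.89), SMARCC1 (log2 fold change −0.80) and SMARCA2 (log2 fold change −0.78) in SUIT2. TET1, a DNA demethylation enzyme, had 3.91, 4.48 and 6.25 CPM in COLO357, against 0.411, 0.552 and 0.984 CPM in SUIT2. In the family of KMT2 complexes, 3 of 17 tested were called higher in COLO357, which were KDM6A, RBBP5 (log2 fold change 1.04) and WDR5 (log2 fold change 0.39). WDR5 missed the threshold without the SUIT2 library of KMT2C siRNA1 (edgeR adjusted p = 0.0532). SUIT2 was higher for 8, including KMT2C and KMT2D themselves, KMT2A (log2 fold change −0.69), the chromatin reader gene PSIP1 (log2 fold change −1.46) and the coactivator gene NCOA6 (log2 fold change −1.33). These values include the libraries in which KMT2C or KMT2D was targeted.

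**Figure D4:**
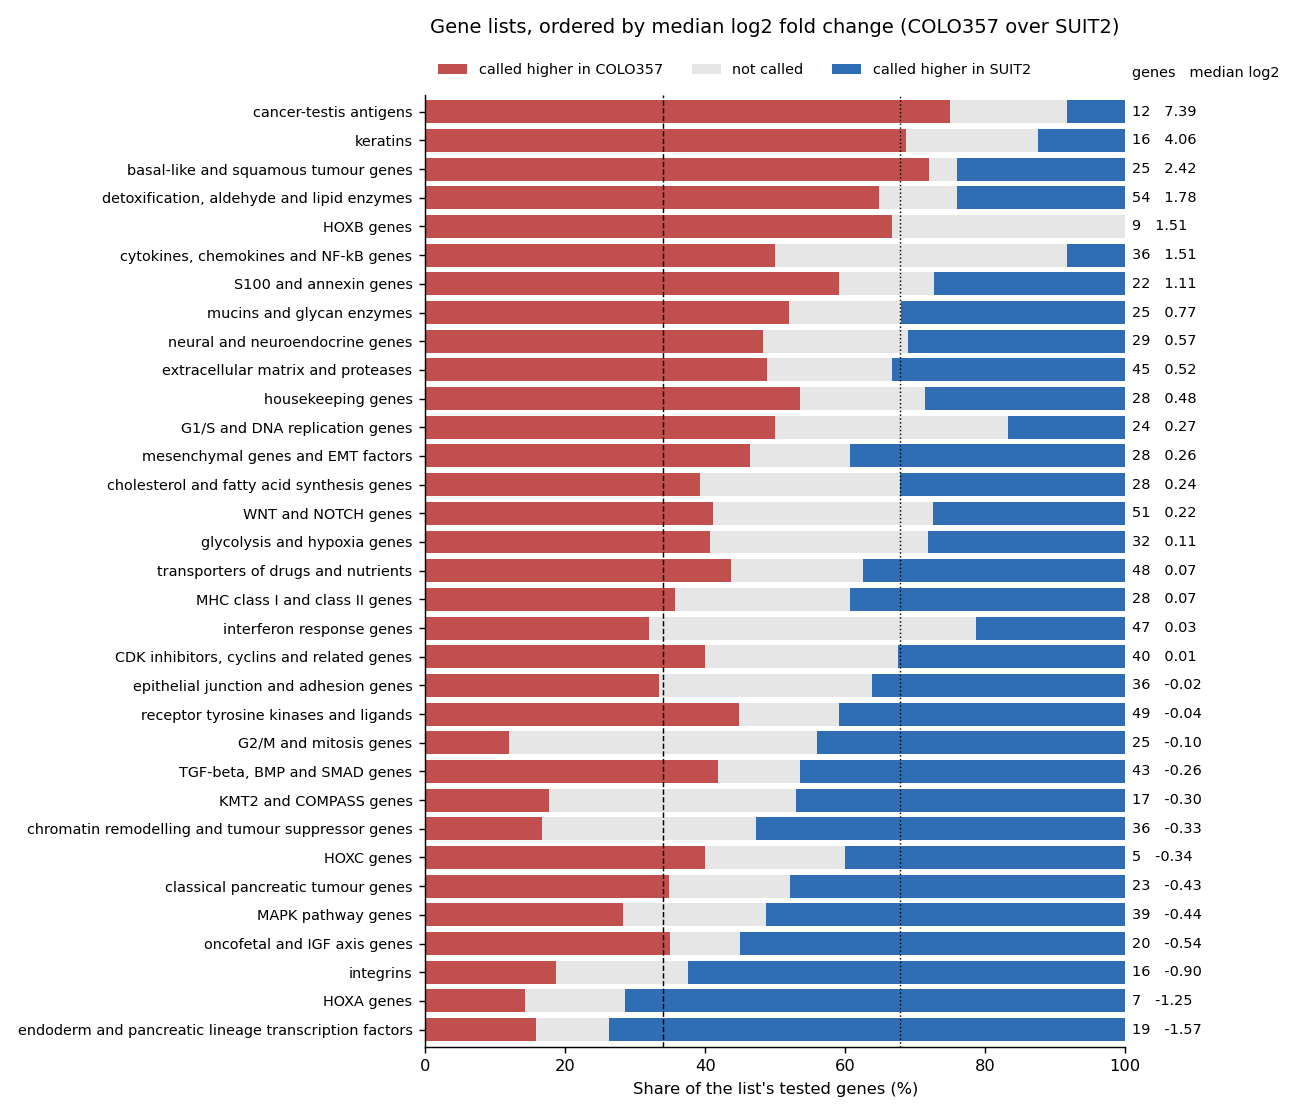
For each gene list (rows, ordered by the median log2 fold change printed at the right), the share of its tested genes called higher in COLO357 (red), not called (grey) and called higher in SUIT2 (blue) is shown in percent, with the number of tested genes. The dashed line marks the 34% of all genes called higher in COLO357, and the dotted line marks, from the right edge, the 32.1% called higher in SUIT2.

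Whether the difference between the lines depended on the knocked-down gene was tested by the 2 interaction terms of line and target (Control, KMT2C, KMT2D). edgeR's quasi-likelihood F test called 0 of 16375 genes (0%), the smallest adjusted p being 1, and 519 genes (3.17%) had an unadjusted p under 0.05. DESeq2 called 12 genes on the same design and limma 0. With 1 Control library in each line, its variation was taken to be that of the other groups (6 residual degrees of freedom). Different siRNAs against the same target served as replicates, so that differences among them entered the error. The 0 calls therefore do not show that the line differences were independent of the target. The 5 genes with the smallest p were RPSAP12, SVEP1, PTPN13, TNFAIP2 and SNORD3B-2. For TNFAIP2, a gene that TNF induces, the log2 CPM differences between the lines were −0.19 with Control siRNA, 0.20 and 0.41 with the KMT2D siRNAs and 2.22, 1.43 and 1.77 with the KMT2C siRNAs. For SVEP1, a matrix and adhesion gene, they were 8.10 with Control siRNA and between 3.57 and 6.02 with the others. For PTPN13, a tyrosine phosphatase gene, they were 1.11 with Control siRNA, 1.81 and 2.35 with the KMT2D siRNAs and 0.52 to 0.67 with the KMT2C siRNAs. None of the 5 passed adjustment.

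The direction of the line differences varied with the chromosome. Among 12824 protein-coding genes tested, 34.8% were called higher in COLO357 and 34.6% in SUIT2, and the median log2 fold change was near 0. On chromosome 15, 63.2% of 408 genes were called higher in COLO357 and 14.7% in SUIT2, with a median of 0.59 that ran from 0.54 to 0.67 over the siRNA pairs. Chromosomes 19 (median 0.50), 5 (0.39), 17 (0.33) and 13 (0.31) followed, of which chromosome 19 ranged from 0.26 in the Control pair to 0.61. On chromosome 12, 54% of 694 genes were called higher in SUIT2 and 17.3% in COLO357, with a median of −0.44 and pair medians of −0.45 to −0.40. Chromosomes 22 (−0.35), 10 (−0.32), 20 (−0.32), X (−0.32) and 2 (−0.29) also lay below 0. Medians of the 6 pairs all had the sign of the chromosome's median except on chromosomes 1, 4 and 11. Of the genes described above, KRT5, KRT6A and KRT81 lie on chromosome 12 and went against its median. Copy number was not measured, and its part in these medians was not tested.

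**Figure D5:**
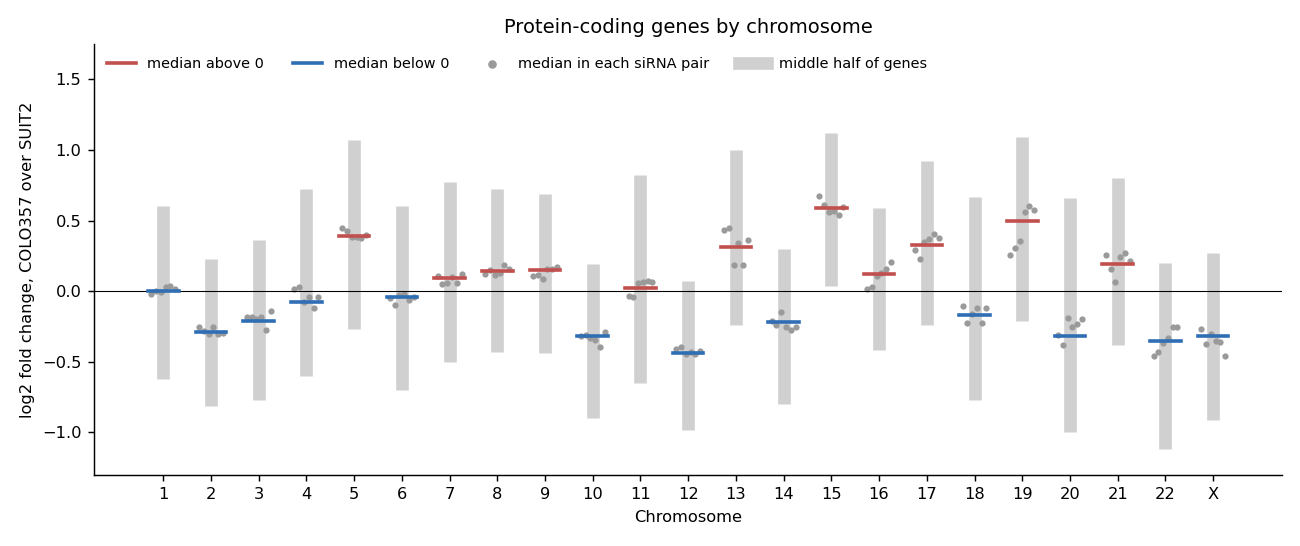
The median log2 fold change of COLO357 over SUIT2 (vertical axis) over the protein-coding genes of each chromosome (horizontal axis) is drawn as a bar, red above 0 and blue below, with grey points for the medians of the 6 siRNA pairs and a grey box for the middle 50% of genes. Chromosomes 15 and 19 lie highest at 0.59 and 0.50 and chromosome 12 lowest at −0.44, and the pair medians of chromosomes 15 and 12 lie close together.

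At the scale of neighbours, windows of 25 consecutive genes reached a median log2 fold change of 1.51 (TFAP2A to FAM8A1 on chromosome 6) in COLO357's favour and −1.53 (FBLN1 to LMF2 on chromosome 22) in SUIT2's. In a window on chromosome 17 (SHMT1 to KSR1), 22 of 25 genes were called higher in COLO357, and in the chromosome 22 window 21 of 25 were higher in SUIT2. Longer stretches were sought in an order of 10787 genes, of which 387 were at least 16-fold higher in COLO357 and 249 in SUIT2. Genes outside this order can lie between the members of a run. Runs of 2 or more genes consecutive in it that all differed at least 16-fold in the same direction numbered 31 (71 genes) in COLO357 and 18 (38 genes) in SUIT2. The longest in COLO357 held CXCL8, CXCL6, CXCL1, CXCL5 and CXCL3, followed by KRT86, KRT81, KRT6A and KRT5, then by AKR1C1, AKR1C2 and AKR1C3, by SLITRK6, GPC5 and GPC6, by ALPP, ALPI and ECEL1 on chromosome 2 and by 3 protocadherin genes (PCDHB2, PCDHB5 and PCDHB8), which are similar in sequence. In SUIT2 the longest held CYP2B6, CYP2S1 and AXL on chromosome 19 and TM4SF18, TM4SF1 and TM4SF4 on chromosome 3. TM4SF1, a surface antigen of carcinomas, had 14.2, 32.6 and 78.5 CPM in COLO357, against 322, 666 and 977 CPM in SUIT2, and TM4SF4 had 0, 0.043 and 0.0636 CPM in COLO357, against 1.63, 7.5 and 12.8 CPM in SUIT2. MMP7 with MMP1, VNN1 with VNN2, and CFTR with CTTNBP2 were among the shorter runs.

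By kind of gene, 58.6% of 1516 long noncoding RNAs, 50.1% of 1467 pseudogenes and 69.3% of 12824 protein-coding genes were called. MIR205HG, the host transcript of a microRNA of squamous epithelium, had 136, 189 and 267 CPM in COLO357, against 0, 0 and 0.204 CPM in SUIT2. LINC02432 had 47.7, 61.4 and 65.6 CPM in COLO357, against 0, 0.101 and 0.137 CPM in SUIT2. CMAHP, a pseudogene of sialic acid metabolism, had 11.7, 17.4 and 22.9 CPM in COLO357, against 0, 0 and 0.0448 CPM in SUIT2. TRHDE-AS1 had no count in COLO357 and 15.1, 23 and 39.7 CPM in SUIT2. B3GALT5-AS1 had 0, 0.0217 and 0.0961 CPM in COLO357, against 18.3, 19.2 and 20.7 CPM in SUIT2. Both lie antisense to coding genes that were also higher in SUIT2, and the sources used here do not give whether the strands were counted apart. RN7SL471P had 0.382, 0.531 and 0.695 CPM in COLO357, against 196, 430 and 751 CPM in SUIT2, and as a copy of the signal recognition particle RNA it may share reads with other copies.

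Promoters of strongly differing genes were compared as a description, in windows of 300 bases from 250 before to 50 after the start (RefSeq, GRCh38.p14), for 10410 tested genes that matched. The CpG observed-to-expected ratio lay under 0.5 in 24.8% of 1308 promoters of genes past 2-fold higher in COLO357 and 23.1% of 1210 of those higher in SUIT2, against 10.3% of 7892 promoters of tested genes not past 2-fold. The AP-1 letters TGANTCA, searched on both strands, occurred in 6.42% of the promoters of genes higher in COLO357 and 4.88% of those higher in SUIT2, against 4.18% of the rest and 7.76% of all 27305 promoters. The TATA box letters TATAAA occurred in 9.86% and 6.45% in the same order, against 5.22% of the rest and 12% of all promoters. The letters AGATAA occurred in 6.57% and 6.94%, against 4.54% of the rest and 10.5% of all. The median GC content was 64% in the promoters of genes higher in COLO357 and 66.7% in those of genes higher in SUIT2, against 65% of the rest, and its part in the shares of these letters was not tested.

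PANC1, the third line of the study, was set beside the other lines as a description. COLO357 and SUIT2 libraries lay 1.72 and 1.55 (median root mean square log2 difference) from PANC1 libraries, against 1.54 from each other. These distances used genes that passed the filter in COLO357 and SUIT2, so genes expressed in PANC1 alone did not enter. In a fit of all 18 libraries, 68.3% of 17472 genes were called between COLO357 and SUIT2, 74.1% between COLO357 and PANC1 and 68% between SUIT2 and PANC1. These comparisons share libraries. Of the 2122 genes past 2-fold higher in COLO357, PANC1 lay nearer SUIT2 for 1490 (70.2%), and of the 1850 higher in SUIT2 it lay nearer COLO357 for 889 (48.1%). Because these genes were chosen for their levels in the other lines, the shares do not show which line PANC1 resembles. KRT5, TP63 and HNF4A did not reach 1 CPM in any PANC1 library. KRT5 had 0, 0.251 and 0.969 CPM in PANC1, and TP63 had 0, 0.0674 and 0.23 CPM in PANC1. HNF4A had 0, 0.0268 and 0.1 CPM in PANC1. NID1 had 45.1, 99.1 and 196 CPM in PANC1, with a median between those of the other lines, and COL4A1 had 0.132, 0.191 and 0.334 CPM in PANC1, close to its level in SUIT2.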

How the data were processed

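Total RNA depleted of ribosomal RNA was sequenced from COLO357, SUIT2 and PANC1 cells. Per the file headers, each deposited file holds raw counts per Ensembl gene for 1 library. FastQC, TopHat2, HTSeq and edgeR and the build hg19 are named, without versions or settings, per the submitters' processing notes. Annotation release, overlap mode and strand setting are not stated in these sources, so that genes with near-identical copies or overlapping partners are uncertain.

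The 5 entries of each file that name no gene (38.5% to 53.4% of all counts in COLO357 and 36.5% to 47.3% in SUIT2) were left out. Of 63677 identifiers, 52526 (82.5%) matched a symbol and a gene type. These and the gene order came from GENCODE and a table of gene names, and its coordinates were not used with the files. Genes that passed edgeR's filter (minimum count 10, minimum total 15) were tested with edgeR 4.0.16 (R 4.3.3; TMM, robust quasi-likelihood F test, terms for siRNA and line, Benjamini-Hochberg adjustment at 0.05), and differences past 2-fold with its test against that threshold. The common biological coefficient of variation was 0.188, with 5 residual degrees of freedom. The siRNA name was the pairing that defined the comparison. Libraries of the same siRNA deviated together (r = 0.166 to 0.435 across genes). Each COLO357 library matched the SUIT2 library of its own siRNA best. DESeq2 1.42.0, limma 3.58.1, other scalings, filters and left-out libraries were alternatives. On simulated counts for 16375 genes of the comparison between COLO357 and SUIT2, 79 of 100 genes changed 2-fold and 100 of 100 changed 4-fold were called, with 15 false calls. A fold against a line without counts used a floor of 3 counts over its 6 libraries, and counting intervals (95%) and floors cover counting error only.

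Genes were named by rank within each direction, by gene list and by level. The members, the gene lists and these rules were chosen with earlier results of these data known, and genes in runs of neighbours were named after their values were seen. A few genes that these rules name are not reported here. Promoter sequences and motifs were taken from RefSeq (GRCh38.p14) by symbol.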

Additional observations from a re-analysis of the deposited data

Results flagged for a closer look

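A library was singled out where its gap to the nearest of the other 5 libraries of its line was a larger share of the line's whole range than Dixon's 95% critical value for 6 samples. Chance flags about 5% of groups, and 32 of the 33 values here came from 513 groups of 1 gene in 1 line, while the other came from the share of read pairs in no annotated gene. That share was 30.4% in COLO357 with KMT2C siRNA3, against 10.2% to 14.5% in the other COLO357 libraries.

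In COLO357, 5 genes stood highest with KMT2D siRNA2. KRT17 had 895 CPM there, DSP 691 CPM, LAMA3 636 CPM, SNAI2 65.7 CPM and MFAP5 61.9 CPM. With Control siRNA, OLR1 was highest at 72.9 CPM, SVEP1 at 27.4 CPM and TET1 at 6.25 CPM. With KMT2C siRNA2, COL1A1 was highest at 151 CPM, and SMAD4 was lowest at 21.6 CPM, below the 23.7 to 24.5 CPM of the others. CXCL6 was highest with KMT2C siRNA1 at 23.6 CPM. With KMT2C siRNA3, WNT7B was highest at 16.2 CPM and HLA-B lowest at 55.5 CPM.

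In SUIT2, the library with KMT2D siRNA2 stood highest for 11 genes. These were EGFR at 1338 CPM, IGFBP1 at 658 CPM, CALB2 at 168 CPM, NFKB2 at 150 CPM, SEMA3A at 119 CPM, CYP3A5 at 92.3 CPM, TGFB2 at 81.5 CPM, ISL1 at 46.3 CPM, SMAD7 at 37.1 CPM, RPE65 at 33.8 CPM and CDKN2A at 14.9 CPM. With KMT2C siRNA1, MMP1 was highest at 3058 CPM, PLAU at 2133 CPM and CDKN1A at 36.6 CPM. With KMT2C siRNA2, ERAP2 was highest at 499 CPM, TAPBP at 372 CPM and TGFBR1 at 114 CPM, and TGFA was lowest at 179 CPM. GPI was lowest with KMT2D siRNA1 at 112 CPM.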

How the results depend on the processing

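The count of called genes, 10821, stayed between 9811 (without the siRNA replicate block) and 13383 (without a filter on low counts) under every alternative run, and those past 2-fold, 3972, between 3296 (DESeq2) and 5635 (without a filter). Leaving out 1 library gave 10499 to 10917 called genes. Other scalings moved the median of all genes by no more than 0.1. Of 322 named genes followed through the alternatives, 301 were called in the main fit, and 2 of these lost their call under some alternative (GATA6 and WDR5). Among the genes not called, 5 were called under an alternative alone, and of all these genes 0 reversed. Of the 5, RPSAP12, SNORD3B-2 and TNFAIP2 were called only where a Control library was left out, so that the condition on the Control pair could not be applied. The line difference varied with the target for 0 genes, but for 12 with DESeq2, 33 without a filter, 1 without the pair KMT2C siRNA1 and 0 to 1 with 1 library left out. The siRNA replicate block, added to that fit after seeing the data, left 0. Genes on in 1 line and silent in the other numbered 105, 48 with silence under 0.05 CPM and 206 with a level of 2 CPM as on. Of 1568 medians of lists and chromosomes under alternatives, 49 moved by more than their spread over pairs. The causes were not tested. Fold changes of genes near 0 counts in 1 line rest on few reads.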
